A study of Mus musculus with 10 samples.

Results

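Translational efficiency was compared between cerebellum of Bmal1 knockout mice and of their wild-type littermates. It is the authors' ratio of ribosome footprint RPKM to total RNA RPKM of one gene in one animal. RPKM is a read count scaled by a length and by the depth of the library. The ratio was deposited for 4 animals, knockout animals 1 and 3 (Bmal1-/-) and wild-type animals 2 and 3 (Bmal1+/+), and it rests on 8 libraries. The mice were bred from heterozygous Bmal1+/- parents on a C57BL/6 background and kept under 12 h of light and 12 h of dark. The deletion is present in the whole animal, and whole cerebellum was lysed, so the ratios average over all its cell types. The labels give neither age, sex nor time of day of sampling for the groups, nor which part of the gene is deleted. Total RNA of knockout animal 2 and of wild-type animal 1 was not analysed here.

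Of 22046 protein-coding genes listed, 11676 reached 100 in mean read count with a ratio above 0 in all 4 animals, and these were the genes compared. Another 8166 genes were listed at 0 in at least 1 of the 8 libraries, and 2204 lay above 0 in all libraries but under the minimum. Zfp85, at a mean read count of 99.92, and Hey2, at 99.96, stood just under the minimum. B3galt4, at 100.09, and Adrb1, at 100.3, stood just above it. Differences are given as log2, knockout minus wild type, so that a negative value is a lower efficiency in the knockout. The test was limma on the 2 against 2 values of each gene, with Benjamini-Hochberg adjustment over all genes compared and a threshold of 0.05.

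Translational efficiency tells how many ribosomes are found on the messages of a gene for a given amount of its RNA. Features of the message that are known to set it include the sequence around the start codon, short open reading frames ahead of it, and structure or regulatory tracts in the leader. The kinase complex mTORC1 raises the translation of messages that start with a terminal oligopyrimidine (TOP) tract, among them those of ribosomal proteins and elongation factors. BMAL1, encoded by Arntl, pairs with CLOCK or NPAS2 and activates genes through E-box sites, among them the Per, Cry and Nr1d genes that feed back on it. BMAL1 has also been described as a factor that associates with the translation machinery downstream of mTORC1.

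The footprint libraries held 27.7 M to 41.0 M recovered reads and the total RNA libraries 25.6 M to 43.2 M. Total RNA was deeper in both knockout animals (38.9 M and 43.2 M) than in both wild-type animals (25.6 M and 27.8 M). Markers of cerebellar cell types were present in total RNA of every animal, with 14600 to 17200 reads per M summed over 18 Purkinje cell markers (reads per M are reads in 1000000 recovered reads of the library). The 16 granule neuron markers summed to 10600 in both knockout animals and to 8720 and 9400 in the wild-type animals. Choroid plexus markers summed to 2780 and 3220 reads per M in the knockout animals and to 1470 and 284 in the wild-type animals. Oligodendrocyte and myelin genes summed to 4460 and 4360 against 6730 and 5090, microglia markers to 179 and 188 against 247 and 257, and the 5 brainstem and midbrain markers read in all libraries to 90.9 and 96.2 against 138 and 134. The part that these differences in tissue content play in the efficiencies was not tested. The length behind the authors' RPKM did not follow transcript length (Spearman rho 0.0 between reads per RPKM unit and coding length), so RPKM was compared only within a gene. The same length enters both libraries of a gene and cancels in the ratio.

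Arntl itself was the only gene called. Its efficiency was 0.463 and 0.393 in knockout animals 1 and 3, against 1.44 and 1.64 in wild-type animals 2 and 3. The groups do not overlap, and the knockout mean of 0.428 ± 0.0494 (SD, n = 2) compares with a wild-type mean of 1.54 ± 0.143 (SD, n = 2). The log2 difference was -1.85 (SE 0.21; limma, adjusted p = 3.78e-05). Arntl lies on chromosome 7 (chr7:113207465-113314126, mm10). Its annotated leader, the part of the message ahead of the start codon, is 588 bases long and holds 7 upstream ATG triplets.

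The lower ratio for Arntl came with fewer footprints and more total RNA. Footprint RPKM was 124 and 107 in the knockout animals against 258 and 295 in the wild-type animals, a log2 difference of -1.26. Total RNA RPKM was 267 and 272 against 179 in both wild-type animals, a log2 difference of 0.59. In recovered reads, Arntl had 1056 and 676 footprints in the knockout animals against 2038 and 1694 in wild type. Both knockout animals therefore still had Arntl RNA and footprints. How far the counted region overlaps the deleted part was not tested. Without a trend of variance on depth in the fit, the same difference had an adjusted p of 0.302 and was not called.

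Across the 11676 genes, 0.00856% were called, which is Arntl alone. At an unadjusted p under 0.05 there were 499 genes (4.27%), of which 143 had a positive and 356 (3.05% of all genes) a negative difference. The median difference was -0.02 and the SD over genes 0.29, beside a median standard error of 0.23 for one gene. For 91.6% of the genes the difference was smaller than 0.5 in either direction. Only 103 genes reached 1, with 42 higher and 61 lower in the knockout, and their median mean read count was 166 against 1097 for all genes compared.

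The separation of the genotypes was read against the animals. In 14.0% of genes both knockout animals were above both wild-type animals, and in 17.7% both were below. The Pearson correlation of log2 efficiency over genes was 0.918 between the knockout animals and 0.940 between the wild-type animals. Between animals of different genotype it was 0.918 to 0.937, so the knockout animals were no closer to each other than to the wild-type animals. The wild-type pair had the highest correlation, while the smallest median absolute log2 difference, 0.191, was between knockout animal 3 and wild-type animal 2, beside 0.198 between the wild-type animals. The differences of 2 separate pairs of animals, knockout 1 minus wild type 2 and knockout 3 minus wild type 3, had a correlation of 0.02 over genes and the same sign in 50.3%. The other pairing gave -0.047 and 46.9%.

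The number of genes called moved with the animals that entered. It was 19 without knockout animal 1, 283 without knockout animal 3 and 8 without wild-type animal 2. It stayed at 1 without wild-type animal 3. In each such fit the animal left alone in its group is assumed to vary like the pair in the other group. Arntl was called in all 4 of these fits, with differences of -1.97 to -1.73.

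None of the genes next in order of p was called, and their values are given as a description. Rpl13a, a protein of the large ribosomal subunit, had efficiencies of 0.0177 and 0.0116 in the knockout against 0.0760 and 0.0790 in wild type (difference -2.43, SE 0.45, limma adjusted p = 0.0745). Ube2l3, a ubiquitin-conjugating enzyme, had 0.0351 and 0.0101 against 0.0762 and 0.103 (difference -2.23, SE 0.43, limma adjusted p = 0.0792). Both sit at the bottom of the range of efficiency, and both have near-identical copies elsewhere in the genome, among which short reads can be split, so their values are uncertain. The counting rule is not given in the sources used here.

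Nav2, a cytoskeletal protein of growing neurites, had 0.410 and 0.447 against 0.666 and 0.893. Dlg5, a scaffold protein at cell contacts, had 0.417 and 0.536 against 0.886 and 0.844. Mark2, a kinase that acts on microtubule-associated proteins, had 0.902 and 0.868 against 1.32 and 1.57. Setd1b, a histone H3 lysine methyltransferase, had 0.461 and 0.691 against 0.913 and 1.04. For these 4 genes the groups did not overlap, the differences ran from -0.87 to -0.70, and the adjusted p-values were 0.502 or higher. The others were 9330159F19Rik, Bahcc1, Gsg1l, Npas2, Elmsan1, Rnf24, Zfhx2 and Hivep3, with differences of -1.46 to -0.87.

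On the higher side Tcf3, a basic helix-loop-helix transcription factor, came closest to the threshold. Its efficiency was 0.188 and 0.135 in the knockout animals against 0.0967 and 0.0566 in wild type (difference 1.11, SE 0.22, limma adjusted p = 0.114). Olfml1, an extracellular olfactomedin-like protein, had 3.17 and 2.70 against 1.28 and 1.58, and Tmx2, a thioredoxin-related membrane protein, had 2.19 and 2.42 against 1.2 and 1.66. Gng13, a G protein gamma subunit with a mean read count of 8992, had 3.90 and 4.25 against 2.62 and 3.19. Again the groups did not overlap, and the differences of these 3 genes were 1.04, 0.70 and 0.49. The others were Gm9938, Atp5g1, Kbtbd8, Taf10, Mmd, Rcn3, Arxes2, Tnfaip3, Trpc6, Rpl23 and Snrpc, of which Gm9938, Atp5g1, Taf10, Rpl23 and Snrpc had mean read counts of 128 to 233.

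The genes that BMAL1 is known to drive through E-boxes form the next group. All 15 on the list were compared, none was called, and their median difference in efficiency was -0.33 beside -0.02 for all genes. The median difference in total RNA was -1.11 and in footprints -1.34. In 6 of the 15 genes both knockout animals were below both wild-type animals, and in 1 both were above. Over all genes these shares were 17.7% and 14.0%. The median deviation from a gene's mean log2 efficiency was -0.14 in knockout animal 1, 0.00 in knockout animal 3, 0.12 in wild-type animal 2 and 0.18 in wild-type animal 3. Without knockout animal 1 the median difference was -0.11.

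Of the 15 E-box genes, 1 had a positive difference in efficiency, Nr1d2, and the rest had negative ones. Over all genes compared, 5423 of 11676 were positive. Nr1d1, a nuclear receptor that represses Arntl, had efficiencies of 1.23 and 2.69 in the knockout animals against 2.34 and 3.17 in wild type, so the groups overlapped (difference -0.59, limma adjusted p = 1.0). Its difference was -0.02 without knockout animal 1 and -1.15, a called value (limma adjusted p = 0.00191), without knockout animal 3. Its relative Nr1d2 had 0.628 and 0.825 against 0.535 and 0.5, without overlap and in the other direction (difference 0.48, adjusted p = 1.0). Total RNA of Nr1d2 had a log2 difference of -3.82 and its footprints -3.35. Hlf, a PAR bZIP transcription factor, had 0.477 and 0.538 against 0.627 and 0.777, a difference of -0.46 (limma adjusted p = 1.0).

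The repressors of the feedback loop and the other output factors had smaller or less even differences. Cry2 had 0.992 and 1.2 against 1.36 and 1.39, Bhlhe40 had 0.964 and 1.22 against 1.32 and 1.43, and Bhlhe41 had 1.55 in both knockout animals against 1.92 and 1.80. The PAR bZIP factor Dbp had 0.793 and 0.930 against 0.977 and 1.03. The cell cycle kinase Wee1 had 1.01 and 0.669 against 1.18 and 1.01, which leaves almost no gap between the groups. Per1 had 0.521 and 1.09 against 0.946 and 1.09, Per2 had 0.564 and 0.644 against 0.577 and 0.712, and Per3 had 0.389 and 0.186 against 0.364 and 0.467. For all 3 Per genes the groups overlapped. With one animal left out, Per3 ran from -1.15 to -0.09 and Wee1 from -0.71 to -0.12. Cry1, Ciart, Tef and Usp2, the last a ubiquitin-specific protease, overlapped as well, with differences of -0.34 to -0.05.

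Npas2, the other partner that can take the place of CLOCK, had a lower ratio beside a much higher RNA level. Its efficiency was 0.746 and 0.936 in the knockout animals against 1.85 and 2.33 in wild type. The difference was -1.31 (SE 0.35; limma adjusted p = 0.615), and it was not called. Total RNA of Npas2 had a log2 difference of 4.42 and its footprints 3.11, so its wild-type ratios rest on fewer reads than its knockout ratios. It did not reach a mean read count of 500. In both fits on 8 libraries with log2(RPKM + 1) its difference in efficiency was -0.68. Clock, whose product is the usual partner of BMAL1, had a difference of -0.12 in efficiency, with 0.226 and 0.202 against 0.236 and 0.228.

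**Figure D1:**
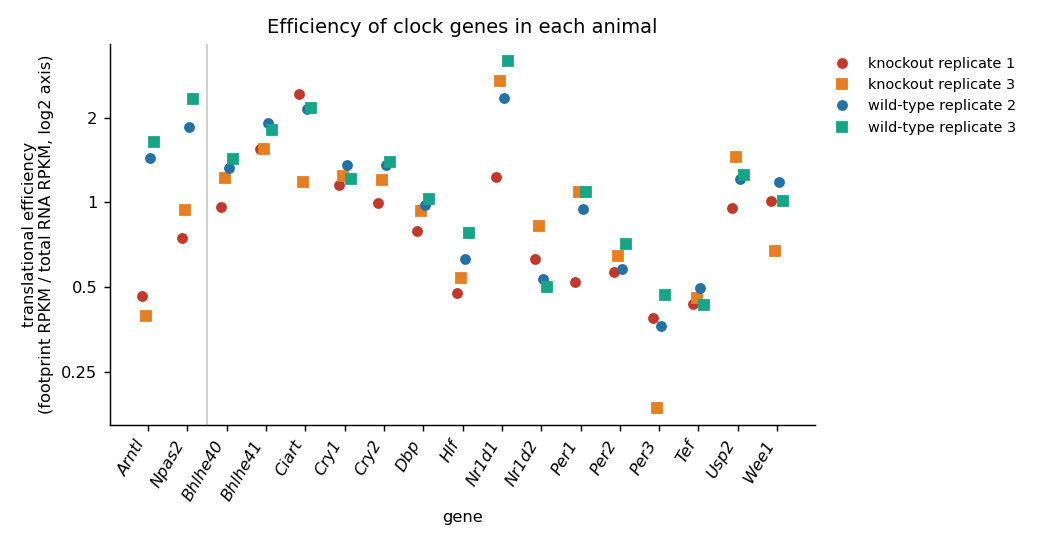
Translational efficiency (footprint RPKM over total RNA RPKM, log2 axis) of Arntl, Npas2 and the 15 E-box clock genes in each of the 4 animals. Arntl stood at 0.463 and 0.393 in the knockout animals against 1.44 and 1.64. Arntl and Npas2, which was not called and had fewer reads in wild type, show the widest gaps. Nr1d2 is the only E-box gene with both knockout animals above both wild-type animals.

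Where total RNA differed strongly between the genotypes, footprints differed by nearly the same amount. Total RNA differed by at least 1 on the log2 scale in 167 genes, and in 166 of these the footprints had the same sign. For the 108 genes with more RNA in the knockout, the median difference was 1.38 in total RNA, 1.42 in footprints and -0.07 in efficiency. For the 59 genes with less RNA it was -1.28, -1.27 and 0.05. These genes were picked by total RNA, which is also the denominator of the ratio, so error in total RNA by itself moves the ratio the other way.

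Spon2, a secreted matrix protein, had the widest span. Its total RNA differed by 7.91 and its footprints by 8.16. The efficiency of Spon2 was 1.29 and 1.80 in the knockout animals against 1.49 and 1.09 in wild type. At these differences its wild-type ratios rest on far fewer reads than its knockout ratios. Fabp7, a fatty acid binding protein of Bergmann glia and astrocytes, differed by 3.84 in total RNA and 4.19 in footprints. The efficiency of Fabp7 was 3.31 and 2.73 against 2.44 and 2.28 (difference 0.35, limma adjusted p = 1.0). Ttr, the thyroid hormone carrier made by the choroid plexus, differed by 3.59 in total RNA and 3.73 in footprints, and its efficiency was 3.27 and 2.85 against 3.05 and 2.50. The groups overlapped in efficiency for Spon2 and Ttr. The summed choroid plexus markers given above follow the same order of animals as Ttr RNA, but the sum includes Ttr itself. Spon2, Fabp7 and Ttr were named after their values were seen.

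**Figure D2:**
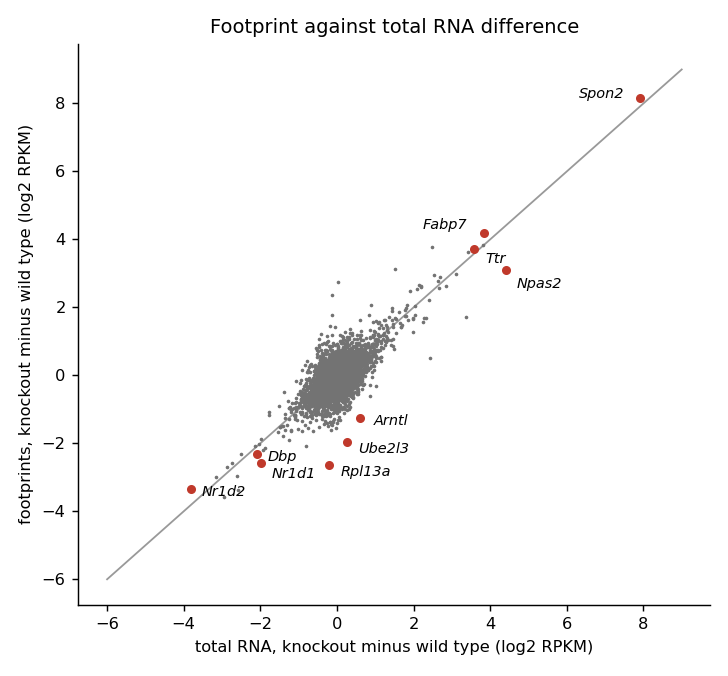
Log2 difference (knockout minus wild type) in footprint RPKM against that in total RNA RPKM for the 11676 genes, one point a gene, with the line of equal difference. Spon2, Fabp7, Ttr and Dbp lie near the line, while Arntl, Npas2, Rpl13a and Ube2l3 lie below it.

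Messages known to answer to mTORC1 did not stand apart from other genes. Of 48 cytosolic ribosomal protein genes compared, none was called, the median difference was 0.00, and the groups were apart upward in 9 and downward in 6, shares near the background of 14.0% and 17.7%. The median efficiency of ribosomal protein genes was 0.697 and 0.720 in the knockout animals against 0.755 and 0.674 in wild type. Rpl4, among the most deeply read of them, had 0.752 and 0.827 against 0.738 and 0.783, and Rpl8 had 0.662 and 0.695 against 0.856 and 0.727. Of 84 such genes listed, 36 were not compared because of low or zero reads, and many have processed pseudogenes, so their counts are uncertain.

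The 20 other TOP messages compared had a median difference of 0.00, with 2 apart upward and 1 downward (14.0% and 17.7% of all genes). Eef2, the factor that moves the ribosome along the message, had 0.778 and 0.949 against 0.950 and 0.946. Pabpc1, the poly(A)-binding protein, had 1.36 and 1.92 against 2.29 and 2.54, a difference of -0.58 (limma adjusted p = 1.0). Vim, an intermediate filament protein, had 3.27 and 3.48 against 3.11 and 3.13.

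The components of the mTORC1 pathway themselves had a median difference of -0.06 over 48 genes, none of them called. Of these, 2 were apart upward and 11 downward, beside 14.0% and 17.7% of all genes. Ulk1, the autophagy kinase that mTORC1 holds back, had 0.605 and 0.914 against 0.929 and 1.17. Rragc, a GTPase that carries the amino acid signal to mTORC1, had 1.12 and 0.780 against 1.35 and 1.19. Larp1, which binds TOP messages, had 0.606 and 0.605 against 0.721 and 0.867. For these 3 the unadjusted p was 0.0277 to 0.0421 and the adjusted p 1.0.

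Translation factors showed no common direction. The 50 genes of the initiation factor list, which includes the kinase gene Eif2ak2, had a median difference of -0.02, with 8 apart upward and 7 downward. Eif4e, which binds the cap of the message, had 0.907 and 0.879 in the knockout animals against 0.680 and 0.565 in wild type, a difference of 0.53 (limma adjusted p = 1.0). Eif5a2 had 0.336 and 0.259 against 0.234 and 0.194. The 12 genes of the elongation factor list had a median difference of 0.01, with 1 apart upward and 2 downward. This list includes the methyltransferase genes Eef2kmt and Eef1akmt2, which are not elongation factors. The 75 mitochondrial ribosomal protein genes had 0.03, with 19 apart upward and 8 downward. Over all genes 14.0% were apart upward and 17.7% downward.

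Messages regulated through upstream open reading frames had a median efficiency of 0.479 over 17 genes, the lowest of all groups together with that of the Sox and Fox genes. Their median difference was 0.10, with 7 apart upward and 2 downward (14.0% and 17.7% of all genes) and none called. Odc1, the first enzyme of polyamine synthesis, had 0.952 and 1.07 against 0.708 and 0.694. Azin1, which blocks the inhibitor of that enzyme, had 0.996 and 0.849 against 0.785 and 0.748, and Amd1, the next enzyme of the pathway, had 0.186 and 0.148 against 0.0407 and 0.109 at a mean read count of 116. These 3 genes were apart upward, with unadjusted p-values of 0.0316 to 0.0999. Slc7a1, an arginine and lysine transporter, differed the other way, with 0.921 and 1.05 against 1.42 and 1.25. The median difference of this group was 0.08 to 0.13 when one animal was left out.

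Synaptic groups were not alike. Glutamate receptors had a median difference of -0.01 over 19 genes (4 apart upward, 1 downward), GABA and glycine receptors 0.01 over 19 (3 and 3) and dendritically localised messages 0.01 over 19 (2 and 3). For 24 synaptic genes linked to autism the median difference was -0.25, none was called, 2 were apart upward and 10 downward, and 8 had a negative difference at an unadjusted p under 0.05, beside 14.0%, 17.7% and 3.05% of all genes. Shank1, a scaffold protein of the postsynaptic density, had efficiencies of 0.306 and 0.462 in the knockout animals against 0.481 and 0.604 in wild type (difference -0.52, limma adjusted p = 1.0). Nlgn3, a postsynaptic adhesion protein, had 0.0175 and 0.0278 against 0.0400 and 0.0442. Ank2, a membrane adaptor and one of the most deeply read members, had 0.884 and 0.965 against 0.885 and 0.967.

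In this group the lowest and the highest animal were knockout animal 1 and wild-type animal 3. The median deviation was -0.23 in knockout animal 1 and 0.22 in wild-type animal 3, against 0.03 in knockout animal 3 and 0.00 in wild-type animal 2. The median difference was -0.11 without knockout animal 1 and -0.08 without wild-type animal 3. Total RNA of the group had a median difference of 0.13 and footprints -0.06.

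Synaptic vesicle release genes were spread more evenly over the animals. The median difference of 30 genes was -0.18, with 1 apart upward and 17 downward (14.0% and 17.7% of all genes), and the median deviations were -0.12 and -0.03 in the knockout animals against 0.07 and 0.10 in wild type. Left out one at a time, the animals gave medians of -0.21 to -0.12. Bsn, a scaffold protein of the presynaptic active zone, had 0.281 and 0.420 against 0.457 and 0.579. The SNARE proteins Vamp2 and Vamp1 had 0.923 and 1.06 against 1.37 and 1.28, and 0.956 and 1.04 against 1.37 and 1.24. Snap25, another SNARE protein with a mean read count of 111691, had 2.72 and 2.29 against 3.17 and 3.01. For these 4 genes the groups did not overlap, the differences were -0.58 to -0.31, and the unadjusted p was 0.00297 to 0.0367 with adjusted values of 1.0.

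Ion channels and other long neuronal messages also had negative medians. Potassium channels had a median difference of -0.12 over 57 genes (4 apart upward, 13 downward), and sodium and calcium channels had -0.15 over 29 genes (1 upward, 12 downward). Cacna1c and Cacna1d, pore subunits of L-type calcium channels, had 0.315 and 0.345 against 0.436 and 0.460, and 0.316 and 0.337 against 0.421 and 0.482. Scn2a, a neuronal sodium channel, had 0.716 and 0.583 against 0.642 in both wild-type animals. Long messages bound by FMRP, a repressor of translation at synapses, had a median difference of -0.17 over 32 genes, with none apart upward and 13 downward. These shares are read beside 14.0% and 17.7% of all genes. With one animal left out, the medians ran from -0.30 to -0.08 for FMRP-bound messages, from -0.24 to -0.08 for sodium and calcium channels and from -0.17 to -0.08 for potassium channels, and all 3 were nearest 0 without knockout animal 1 or wild-type animal 3. The median deviations of FMRP-bound messages were -0.22 in knockout animal 1 and 0.19 in wild-type animal 3, against 0.00 and -0.01 in the others. No member of these 3 groups was called.

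Transcription factor families did not move together. Sox and Fox genes, with a low median efficiency of 0.479, had a median difference of -0.18 over 26 genes, and the median was -0.02 without knockout animal 1. Foxo4 had 0.127 and 0.178 against 0.242 and 0.267. Zinc finger (Zfp) genes, the largest family with 315 genes, had a median of 0.06. Of these, 60 were apart upward and 34 downward (14.0% and 17.7% of all genes). Zfp638 had 1.09 and 0.741 against 0.851 and 0.957. None was called in either family.

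Genes of mitochondrial respiration had high efficiencies. Complex I subunits had a median efficiency of 2.14 over 36 genes, complexes II to IV 1.52 over 33 and ATP synthase 2.27 over 16, against 0.945 for all genes. Their median differences were 0.09, 0.09 and 0.07, and none was called. Complex I had 7 genes apart upward and 0 downward, and complexes II to IV had 8 and 1 (14.0% and 17.7% of all genes). Cox7b, a subunit of cytochrome c oxidase, had 4.58 and 4.66 in the knockout animals against 2.84 and 3.70 in wild type (difference 0.51, limma adjusted p = 1.0). Ndufs3, of complex I, had 3.16 and 3.48 against 2.60 and 2.53, and Atp5b, the catalytic subunit of ATP synthase, had 2.21 and 2.03 against 2.29 and 1.86. Without wild-type animal 3 the medians of the 3 groups were 0.00, -0.03 and -0.05.

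The genes encoded in mitochondrial DNA had the opposite sign. Their median difference was -0.20 over 8 genes, with 0 apart upward and 2 downward (14.0% and 17.7% of all genes). The complex I subunit mt-Nd2 had 3.63 and 2.97 against 3.28 and 6.28, and mt-Nd5 had 2.12 and 1.74 against 2.08 and 3.04. In both, wild-type animal 3 alone stood high, and without it the median difference of the group was -0.03. Mitochondrial ribosomes differ from cytosolic ones, and how far the footprint protocol captured them was not tested.

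**Figure D3:**
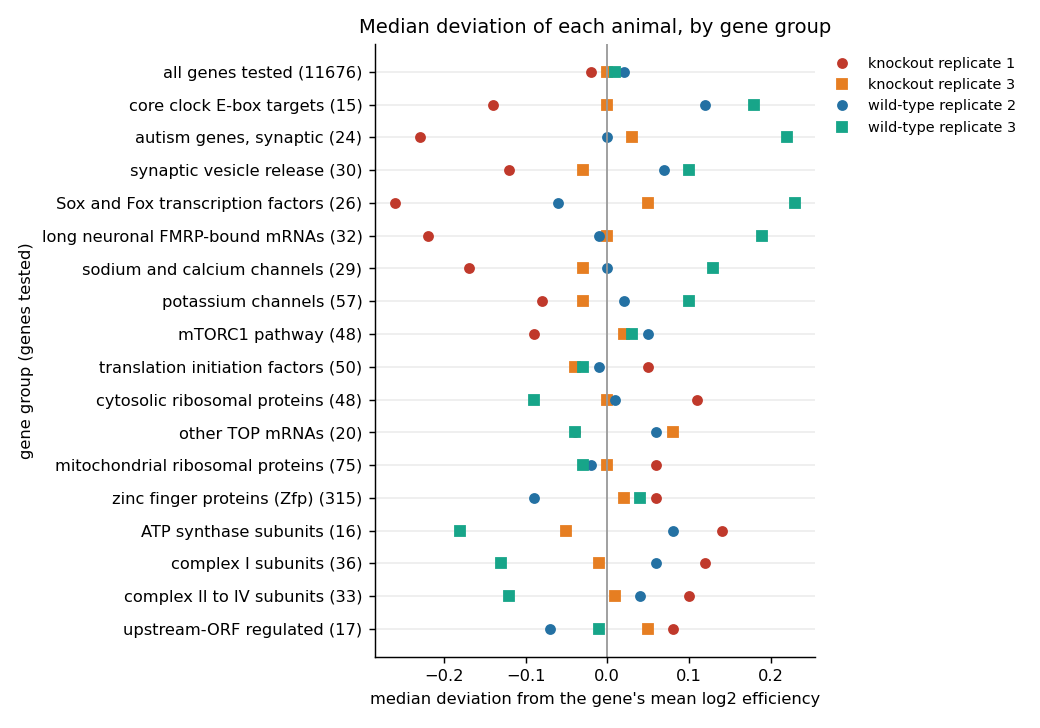
Median deviation of each animal from a gene's mean log2 efficiency, for all genes compared and 17 gene groups, with the number of genes in brackets. In the synaptic groups knockout animal 1 is lowest and wild-type animal 3 highest, for example at -0.23 and 0.22 for synaptic autism genes, while in the groups of respiration wild-type animal 3 is lowest.

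Markers of cerebellar cell types had medians of both signs. The 18 Purkinje cell markers had a median difference of 0.05 (3 apart upward, 4 downward), the 16 granule neuron markers -0.02 (2 and 2) and the 16 astrocyte and Bergmann glia markers -0.08 (3 and 6). The 16 cerebellar interneuron markers had -0.15 (1 and 3), and 0.06 without knockout animal 1. These counts are read beside 14.0% apart upward and 17.7% downward over all genes. Car8, a carbonic anhydrase-related protein of Purkinje cells, had 0.953 and 0.849 against 0.855 and 0.746. Rgs8, a regulator of G protein signalling in the same cells, had 0.268 and 0.260 against 0.320 and 0.287. Oligodendrocyte and myelin genes had a median difference of -0.09 in efficiency and -0.28 in total RNA, and microglia markers 0.08 and -0.39. The 9 choroid plexus markers had a median of 0.19 in efficiency and 2.54 in total RNA, and the first was -0.15 without wild-type animal 3. The astrocyte median was 0.01 without knockout animal 1, and the oligodendrocyte median was 0.01 without knockout animal 1 or wild-type animal 3. None of these markers was called. In whole tissue, fewer cells of a type and less RNA per cell cannot be told apart.

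The level of efficiency itself spanned a wide range that both genotypes shared. The median over genes was 0.925 and 0.949 in the knockout animals against 0.955 and 0.953 in wild type. The 5th percentile was 0.213 to 0.246 and the 95th percentile 2.63 to 2.80. The highest mean values belonged to Kif24, a kinesin (22.0 and 9.85 in the knockout animals, 24.1 and 17.7 in the wild-type animals), and to Efna2, an ephrin (17.5 and 11.3 against 19.8 and 11.5). They were followed by Fxyd7, Phyhipl, Mapre3 and Uqcrq. The lowest 6 were Igip, Chchd2, Gm9938, Gm38393, Arxes2 and Sms, with ratios of 0.00160 to 0.0255 and mean read counts of 128 to 334. Near-identical copies make Chchd2, Arxes2 and Sms uncertain.

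The start codons of 5 genes of high and 5 genes of low efficiency, all with 1000 or more in mean read count, are shown. They set the letters around the start beside the level. Each line gives 12 bases before the ATG, the ATG and 10 bases after it, from GENCODE M21 on mm10. Capitals mark the base 3 before the ATG, the ATG itself and the base after it. A purine at the first of these and a G at the last are the known features of a strong mammalian start. The genes were chosen after their values were seen. They stood at the ends of the range only among genes with a full start window, and a chromosome was left out of the choice. Genes with a shorter leader could not enter. The genes shown therefore need not be the highest and lowest of all genes at this read count.
Phyhipl (chr10:70557682-70655965, minus strand): ggggtcgcgAagATGGaggtgccgc
Mapre3 (chr5:30814641-30866106, plus strand): gcactctggGgtATGGctgtcaatg
Uqcrq (chr11:53427922-53430831, minus strand): gccgccgtcAccATGGgccgcgagt
Ywhae (chr11:75732869-75765845, plus strand): gccgctgccGcaATGGatgatcggg
Ndufc1 (chr3:51404677-51408988, minus strand): ctgcggaacAagATGGcgccgtccg
Ttbk2 (chr2:120732816-120850604, minus strand): cagggttttGcaATGAgtggaggag
Bcl2l2 (chr14:54883377-54888234, plus strand): ctggccgccCggATGGcgaccccag
Tomm20 (chr8:126930667-126945844, minus strand): agtcgagcgAagATGGtgggccgga
Purb (chr11:6467599-6475917, minus strand): gcggccgagAagATGGcggacggcg
Tulp4 (chr17:6106437-6251128, plus strand): attgaaaaaAgtATGTatgcagcag

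All 5 high genes have a purine and a following G, and none has an upstream ATG in its annotated leader. Phyhipl had efficiencies of 6.49 and 6.19 in the knockout animals against 7.63 and 8.24 in wild type. Mapre3, a microtubule end-binding protein, had 5.41 and 5.76 against 6.44 and 8.88. Ywhae, a 14-3-3 protein, had 6.15 and 5.57 against 5.76 and 6.60, and Uqcrq, a complex III subunit, had 7.00 and 6.23 against 6.58 and 5.99. Of the 5 low genes, Tomm20 and Purb carry the same favourable start letters as the high ones. Ttbk2, a tau tubulin kinase with 4 upstream ATGs, had 0.0288 and 0.0261 against 0.0386 and 0.0391. Tulp4, with 7, had 0.0482 and 0.0584 against 0.0473 and 0.0517. The 5 low genes share long annotated 3′ UTRs, of 2704 to 7316 bases, against 913 to 1568 in the high genes. Tomm20 has many processed copies, so its ratio is uncertain.

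Over all genes the level followed features of the message in every animal. Messages with no upstream ATG had a median efficiency of 1.10 and 1.15 in the knockout animals against 1.15 and 1.11 in wild type (5272 genes). Those with 1 had 0.883 and 0.920 against 0.919 and 0.929, those with 2 to 4 had 0.783 and 0.805 against 0.797 and 0.812, and those with 5 or more had 0.671 and 0.701 against 0.670 and 0.695. The order was the same in all 4 animals. The genotype difference was -0.03 to -0.01 in each of these 4 classes, beside -0.02 for all genes.

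**Figure D4:**
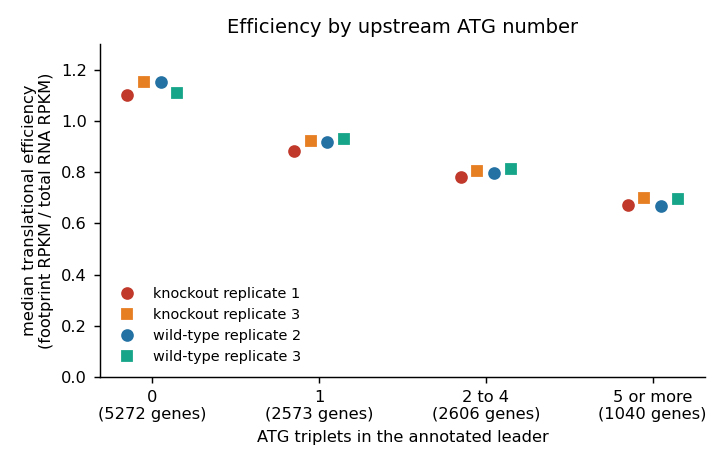
Median translational efficiency (footprint RPKM over total RNA RPKM) in each animal for genes grouped by the number of ATG triplets in the annotated leader. Every animal steps down from 1.10 to 1.15 without an upstream ATG to 0.670 to 0.701 with 5 or more, and the 4 animals lie close together in each class.

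From the lowest to the highest decile of efficiency, the share of genes with an upstream ATG went from 70.3% to 37.1% and the share with a purine 3 bases before the start from 81.9% to 91.5%. The share with a G after the ATG did not go with the level, at 52.2% in the lowest and 50.1% in the highest decile. The median leader went from 236 to 154 bases and the median 3′ UTR from 2272 to 545 bases. The Spearman correlation with level over genes was -0.35 for 3′ UTR length, -0.24 for the number of upstream ATGs, -0.16 for leader length and -0.12 for coding length, as a description over genes that share the same 8 libraries. Footprints come from coding sequence and total RNA from the whole message. If reads were counted over whole messages, untranslated length alone would lower the ratio, and since the counting rule is not given this cannot be told apart from lower translation. Among genes whose coding part fills the largest share of the message (the top quintile, above 72.4%), the median was 1.26 without an upstream ATG (1250 genes) and 0.715 with 5 or more (113 genes). The coding share still ran from 72.4% to 99.6% there, so untranslated length was not held equal between these classes.

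The genotype difference changed little with the level of efficiency. Its median was -0.07 in the lowest decile, where efficiency lay between 0.00333 and 0.347, and 0.01 in the highest decile, from 2.14 to 17.5. The spread was wider at the bottom, with an SD over genes of 0.43 in the lowest and 0.26 in the highest decile. The slope went with knockout animal 1. Median deviations went from -0.11 to 0.06 in knockout animal 1 from the lowest to the highest decile, and from 0.07 to -0.03 in knockout animal 3. The wild-type animals went from 0.03 to 0.01 and from 0.06 to -0.02. Without knockout animal 1 the median of the lowest decile was 0.04.

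The same animal differed from the rest by base composition. Over 11666 genes with an annotated coding sequence, the Spearman correlation of coding GC content with the deviation was -0.53 in knockout animal 1, 0.34 in knockout animal 3, 0.24 in wild-type animal 2 and 0.10 in wild-type animal 3. In the quintile with the lowest GC (33.3% to 47.3%) the median deviation was 0.17 in knockout animal 1 and -0.10 in knockout animal 3, and in the quintile with the highest (58.2% to 77.9%) it was -0.22 and 0.11. The median genotype difference went from 0.07 through 0.02, -0.02 and -0.07 to -0.13 over the 5 quintiles. The gene groups with negative medians differ in their GC content, with a median of 62.2% for Sox and Fox genes, 57.1% for E-box clock genes and 53.4% for synaptic autism genes, against 53.0% for all genes. With each animal adjusted for its median deviation by coding GC, an alternative chosen after seeing the data, these 3 medians were -0.11, -0.23 and -0.17, and that of synaptic vesicle release genes was -0.15. Arntl was again the only gene called. The part of base composition in the group medians was not tested further.

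**Figure D5:**
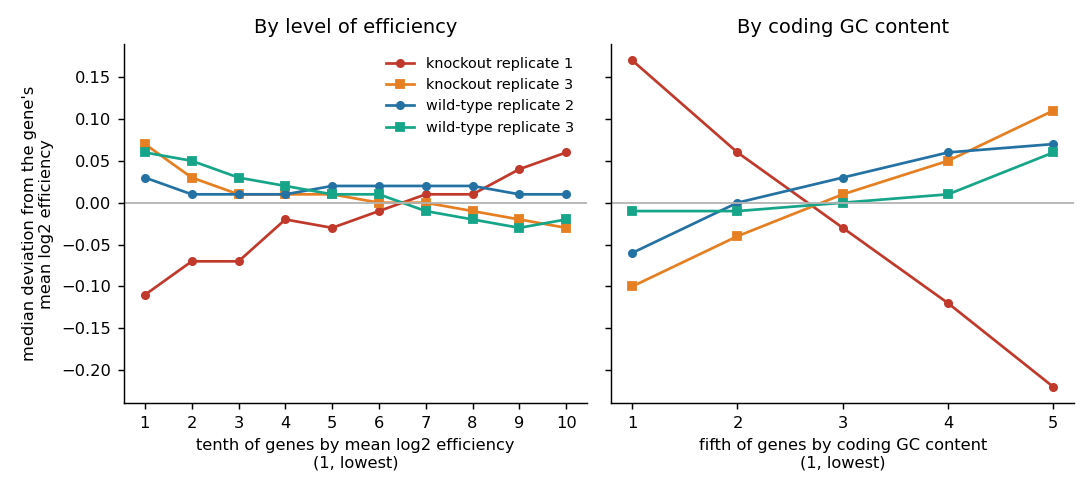
Median deviation of each animal from a gene's mean log2 efficiency over deciles of efficiency (left) and quintiles of coding GC content (right). Knockout animal 1 rises with the level of efficiency, from -0.11 to 0.06, and declines with GC content, from 0.17 to -0.22, while the other 3 animals stay within 0.11 of 0.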

How the data were processed

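Per the labels' protocols, frozen cerebellum was lysed with cycloheximide, one portion was digested with RNase I for ribosome footprints, another was fragmented as total RNA, and ribosomal RNA was depleted. Tools named in the submitters' processing notes are Bowtie, Cufflinks and STAR, beside build mm10. Roles, versions and the counting rule are not given in the sources used here. Per the file headers, the authors deposited RPKM for 8 libraries, the ratio of footprint to total RNA per animal, and a mean read count per gene. All 47788 ratios checked were within 1% of the RPKM quotient. The mean read count equals the geometric mean of 8 read counts, from which whole reads were recovered (100.0% of 3328 values within 0.1 of a whole number). Read totals cover only the 13880 genes above 0 in all libraries.

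The log2 ratio was tested with limma 3.58.1 in R 4.3.3, without a pseudocount, with a variance trend on log2 mean read count. The fit was also run on simulated data with independent normal noise drawn from the fit itself. Those data hold no deviation of an animal by base composition, so they cannot tell how the fit behaves with one. Nothing says that the animals of a group were from separate litters. Leader, coding and 3′ UTR features came from the principal transcript in GENCODE M21 (11666 genes compared). Named genes are Arntl, the 15 of smallest p in each direction, the E-box clock genes, the 6 highest and lowest efficiencies, and within a list the 3 of smallest p and 2 of most reads. Members and lists were chosen with earlier results of these data known, and lists are described by counts and medians without a test. Some lists also hold genes of related name that are not of the class, such as Grid2ip among glutamate receptors and Kcnip2 among potassium channels. Alternatives were other read minimums, centring, quantile normalization, no trend, a pseudocount of 0.1, an interaction fit on 8 libraries, limma-voom on recovered reads, each animal left out, and a coding GC adjustment.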

Additional observations from a re-analysis of the deposited data

How the results depend on the processing

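Arntl was the only gene called with a read minimum of 20 or 500 or with none, and with centring, a pseudocount of 0.1, limma-voom and the coding GC adjustment. Quantile normalization called 3 genes (Arntl, Tcf3, Ube2l3), and no variance trend called 0, with 530 at an unadjusted p under 0.05 and an adjusted p of 0.302 for Arntl at a difference of -1.85. The interaction fit on 8 libraries, log2(RPKM + 1), called 2 genes (Arntl, Rpl13a) without and 2 with the animal as a replicate block. Each ratio already pairs both libraries of an animal, and the genotypes share only the number 3, so no pairing across genotypes was possible. Leaving out one animal gave 1 to 283 calls, with Arntl called in all 4 fits. The lowest decile's median of -0.07 ranged from -0.15 to 0.04 and the highest decile's 0.01 from -0.04 to 0.07 with one animal left out. With quantile normalization the lowest decile's median was 0.01 and the highest decile's -0.01, so the slope by level was gone. With the coding GC adjustment they were -0.03 and 0.01. Among E-box genes, Per3 was 0.16 in both interaction fits and Tef 0.01 with quantile normalization and 0.02 with the GC adjustment, against -0.62 and -0.05 in the main results. With one animal left out, Per1 ranged from -0.96 to 0.10, Per2 from -0.24 to 0.06, Ciart from -0.86 to 0.17, Usp2 from -0.37 to 0.23 and Tef from -0.15 to 0.05. The cause was not tested. With 2 animals a group, a median standard error of 0.23 limits what can be called for one gene.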
